A study of Mus musculus with 12 samples.

Results

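The m6A peaks described here lay in the 3' untranslated region (3' UTR) of a transcript and in no other part of it. They were the listed peaks whose deposited region was the 3' UTR alone, 475 of the 1043 listed. A listed peak is 1 peak on 1 transcript. Peaks that shared at least 1 base of an exon block on 1 strand, and changed in the same direction, were merged, which left 306 sites in 301 genes. MeRIP-seq was performed in mouse embryonic fibroblasts (MEFs), primary cells that stop dividing after serial passage, at passage 9 (P9, senescent) and passage 3 (P3, young). Each passage had 3 MeRIP and 3 input libraries, 12 in all, with no other treatment named in the labels, which do not say whether the replicates were separate cultures. Folds are linear, P9 divided by P3, and both the fold and the p of a peak are given as deposited by the authors. The deposited values name Treatment and Control only, and these were taken to be P9 and P3 because their counts of higher and of lower peaks equal those in the paper for P9 against P3.

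The deposited values hold only peaks that had passed a threshold. No higher peak had a fold under 1.50, no lower peak had a fold over 0.667, and the largest p was 0.0490. Values per library were not used here, so each fold stands without a spread between replicates, no difference below was tested, and the depth is unknown. The cultures were measured in bulk, so fewer cells with a transcript and less of it per cell cannot be told apart. The sources used here do not say whether the fold was corrected by the input, so a change in methylation and a change in the amount of a transcript cannot be told apart either. None of the 12 fibroblast markers and none of the 14 markers of other cell types had a listed peak in any region, so the labelled cell type could not be checked from these values.

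N6-methyladenosine (m6A) is placed on messenger RNA by a methyltransferase complex around METTL3 and METTL14, and FTO and ALKBH5 remove it. It is found mostly near the stop codon and in the 3' UTR, where reader proteins such as the YTHDF family bind it and affect the decay and translation of the message. The 3' UTR also holds the sites of microRNAs and of RNA-binding proteins, and its length depends on which polyadenylation site is used.

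Most bases of a 3' UTR site could be read for Tnfrsf23 alone, because the RefSeq promoter window of a neighbouring gene, E230032D23Rik, covers 270 of the 414 bases of its site. Tnfrsf23 encodes a decoy receptor for the death ligand TRAIL in the mouse. The site lay at chr7:143668027-143668440 on the minus strand (mm10), with a fold of 1.69 (deposited p 0.000126). The m6A consensus was searched on the transcript strand as A, G or T, then A or G, then AC, then A, C or T, with overlapping matches counted. The covered bases held 9 matches and none of the form GGACT. Both matches that begin with AGAC are shown as examples, 5' to 3' on the transcript strand and numbered from the 5' side, with the consensus in capitals. The sequences are from RefSeq (GRCm38.p6), at chr7:143668213-143668241 and chr7:143668176-143668204.
Tnfrsf23 match 1: agcaataaaaggAGACTgtgtgccacact
Tnfrsf23 match 3: cttgaacataggAGACCtcaaagcctgtc
A match to so short a consensus is common. Of 32851 promoter windows cut to the same 270 bases, 97.8% held at least 1 match, with a median of 5, and 23.3% held GGACT. Promoter windows are another kind of sequence than 3' UTRs, so these values are no matched background for the site. The matches describe the sequence and do not place a methylated base.

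Nearly all of the peaks in the 3' UTR alone were higher in P9. There were 440 higher and 35 lower listed peaks, a share of 92.6% higher (95% Clopper-Pearson interval 89.9% to 94.8%), against 80.5% over all listed peaks. Among the 568 listed peaks of all other regions the share was 70.4% (66.5% to 74.1%). Over merged sites, 286 of 306 were higher in the 3' UTR alone (93.5%, 90.1% to 95.96%), against 248 of 360 in the other regions (68.9%, 63.8% to 73.6%) and 79.9% over all merged sites. These intervals count listed peaks and carry no other error. They do not overlap between the 3' UTR alone and the other regions in either unit, but the difference was not tested.

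Peaks that spanned coding sequence and 3' UTR, the class nearest in position, lay between. Of 166 such listed peaks 147 were higher (88.6%, 82.7% to 92.97%), an interval that overlaps that of the 3' UTR alone. Over merged sites, 96 of 110 were higher (87.3%, 79.6% to 92.9%). Of 308 peaks in coding sequence alone 217 were higher (70.5%, 65.0% to 75.5%), and of 192 merged sites there 133 (69.3%, 62.2% to 75.7%). Among these classes the share was lowest in coding sequence alone. The intervals of the 3' UTR alone and of this mixed class overlap, so their order is not resolved. Peaks of the remaining regions, such as the 5' UTR, were not counted apart here.

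**Figure D1:**
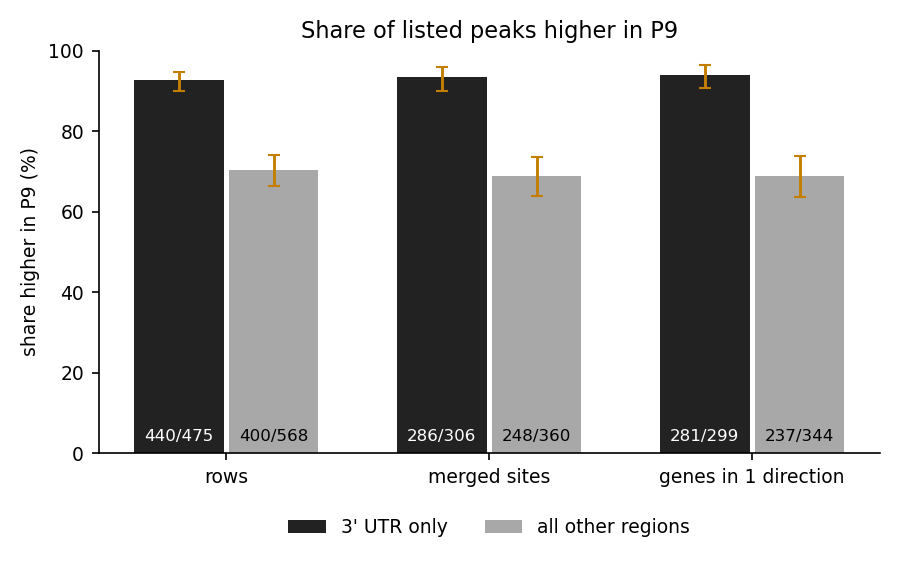
Share of listed peaks higher in P9 (y axis, %), counted as rows, merged sites and genes with peaks in 1 direction, for the 3' UTR alone (black) and all other regions (grey). Error bars are 95% Clopper-Pearson intervals and the counts in the bars are higher over all; the black bars stand at 92.6% to 93.98% and the grey bars at 68.9% to 70.4%.

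By gene, 281 genes had only higher 3' UTR sites, 18 had only lower sites and 2 had both. The sites lay on all autosomes and the X chromosome, with 27 on chromosome 5 and 4 on chromosome 19 as the extremes among these, and 1 site on an unplaced scaffold. On 9 of the 20 chromosomes at least 1 site was lower, and chromosome 9 held 4 of the 20 lower sites.

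The folds of most sites were small. The median fold of the higher sites was 1.73 (interquartile range 1.59 to 2.10, 95% interval of the median 1.69 to 1.78, n = 286), beside 1.72 (1.56 to 2.00, n = 248) for higher sites of the other regions. The median of the lower sites was 0.568 (interquartile range 0.468 to 0.650, n = 20), beside 0.603 (0.511 to 0.644, n = 112) elsewhere. The sites of the 3' UTR alone and of the other regions thus had similar middle folds in both directions, each on its own side of the same threshold. A change of at least 2-fold was listed at 83 higher sites (29.0%) and of at least 4-fold at 16 (5.59%). Among the lower sites, 6 changed at least 2-fold and 3 at least 4-fold.

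The largest folds and the smallest p-values belonged mostly to different genes. Only 2 of the 286 higher sites had a fold of at least 4 together with a p of at most 0.001, and 29 had a p that small with a fold under 2. These 2 were Zfp92 and Nsd2. Tcea1, which encodes a transcription elongation factor, was just below them with a fold of 3.97 (deposited p 0.000912), and was named after its values were seen. Over the higher sites the rank correlation of fold with p was 0.10 (Spearman, n = 286), a description over sites that share libraries.

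**Figure D2:**
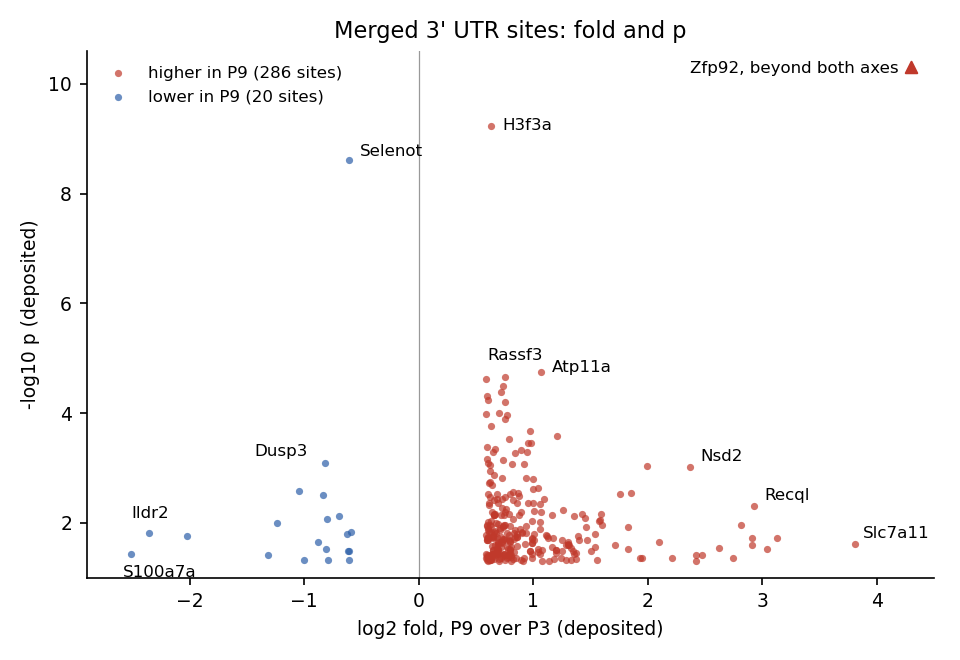
Log2 of the deposited fold of P9 over P3 (x axis) against -log10 of the deposited p (y axis) for each merged 3' UTR site, higher in red (286 sites) and lower in blue (20 sites). Zfp92 lies beyond both axes and is drawn at the corner; the sites with the smallest p sit close to the fold threshold, and the large folds of Slc7a11 and Recql sit low on the y axis.

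Zfp92, a zinc finger gene with a KRAB domain on the X chromosome, had a fold of 2702 (deposited p 6.31e-28) at chrX:73424608-73424787. All deposited folds equal 2 raised to a log2 value of 3 significant digits. The log2 value of Zfp92 is 11.4, which stands for any fold between 2610 and 2798. The levels in P9 and in P3 behind this ratio were not used here. Because of the same rounding, 124 sites share their fold exactly with another site.

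After Zfp92, the higher sites with the largest folds were those of genes with unrelated roles. Slc7a11, the cystine-glutamate antiporter, had a fold of 14.0 (deposited p 0.0240) at chr3:50369789-50370028. Havcr2, which encodes the checkpoint receptor TIM-3, had a fold of 8.75 (deposited p 0.0191). Opn3, a light-sensing G protein-coupled receptor, had a fold of 8.22 (deposited p 0.0302). These are membrane proteins, and their p-values were all over 0.01. Recql, a DNA helicase, followed with a fold of 7.62 (deposited p 0.00490). Bmp2, a bone morphogenetic protein, and Adat3, a subunit of the tRNA adenosine deaminase, shared a fold of 7.52, with deposited p of 0.0191 and 0.0257. Nipa1, a magnesium transporter, had a fold of 7.01, Ehd4, an endocytic recycling ATPase, 6.68, and Mtm1, the phosphoinositide phosphatase myotubularin, 6.15. Among these 10 genes only Zfp92 and Recql had a p of at most 0.01.

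The higher sites with the smallest p after Zfp92 had folds from 1.51 to 2.10. H3f3a, which encodes the histone variant H3.3, had a fold of 1.55 (deposited p 5.89e-10) at chr1:180802566-180802775. Atp11a, a phospholipid flippase, had a fold of 2.10 (deposited p 1.78e-05), and its site ended exactly at the 3' end of the RefSeq gene. Rassf3, a Ras-association domain protein, had a fold of 1.68 (deposited p 2.19e-05). The p of H3f3a was by far the smallest of these, and those of Atp11a and Rassf3 were close to each other. G3bp1, a core protein of stress granules, had a fold of 1.51 (deposited p 2.40e-05). Adgrl1, an adhesion G protein-coupled receptor, had 1.66, Tmpo, a protein of the nuclear lamina, 1.65, and Gnaq, a G protein alpha subunit, 1.51. Fads1, a fatty acid desaturase, had 1.52 and Nhlrc3 had 1.69.

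The 20 lower sites lay in 20 genes, of which Dusp3 and Zfp235 also had a higher site. S100a7a, an S100 calcium-binding protein, had the smallest fold, 0.176 (deposited p 0.0372), at chr3:90658163-90658669. Ildr2, an immunoglobulin-like domain receptor, had 0.195 (deposited p 0.0151), and Zfp235 had 0.247 (deposited p 0.0170). These 3 were the only lower sites with a change of at least 4-fold. Cux1, a homeodomain transcription factor, had 0.401, Zfp697 0.423, and Jup, the junction protein plakoglobin, 0.483. Spopl, an adaptor of CUL3 ubiquitin ligases, had 0.501, Ppp1r12b, a regulatory subunit of myosin phosphatase, 0.543, Nktr, a cyclophilin-related protein, 0.560, and Dusp3, a dual-specificity phosphatase, 0.568. The other 10 lay between 0.569 and 0.663.

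The smallest p of a lower site was that of Selenot, a selenoprotein of the endoplasmic reticulum, with a fold of 0.657 (deposited p 2.45e-09) at chr3:58591138-58591585. The next was Dusp3 (deposited p 0.000794), followed by Jup (deposited p 0.00263), Nktr (deposited p 0.00309) and Zpr1, a zinc finger protein with a fold of 0.616 (deposited p 0.00759). Selenot and Dusp3 were the only lower sites with a p of at most 0.001, against 34 higher sites. As shares these are 10.0% of the lower (1.23% to 31.7%) and 11.9% of the higher sites (8.38% to 16.2%), and their intervals overlap.

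The sites just inside the fold threshold were also of mixed p. On the higher side these were Slc1a5, a glutamine transporter, with a fold of 1.50 (deposited p 0.0372), Birc5, the mitotic protein survivin, also with 1.50 (deposited p 0.000102), and Efna5, an ephrin, also with 1.50 (deposited p 0.0166). On the lower side they were Pacsin2, a membrane-bending protein of endocytosis, with 0.663 (deposited p 0.0148), then Selenot, and then Parp6, a mono-ADP-ribosyltransferase, and Gucd1, both with 0.656. Peaks just outside the threshold were not used here.

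Itga9, an integrin alpha subunit that binds matrix proteins such as tenascin C, had a higher site listed on 2 transcripts. On a transcript of 1935 nt the peak covered 269 nt, at chr9:118897455-118897723, with a fold of 2.31 (deposited p 0.000257). On a transcript of 7020 nt the peak covered 840 nt with a fold of 1.56 (deposited p 0.00372). The shorter peak lies almost wholly within the longer, which also covers bases beyond it. The folds are therefore of overlapping stretches of unlike width, merged into 1 site. By fold the site ranked 56 among the 286 higher sites with the value of the shorter transcript, and would rank 232 with that of the longer.

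Itga9 was also the site whose listed folds differed most between transcripts. Its peaks on them differed in width as well, so transcript and width cannot be told apart there. Of the 306 sites, 205 were listed for 1 transcript and 101 for several, at most 7. Over those 101 the ratio of the largest to the smallest listed fold had a median of 1.02 (interquartile range 1.00 to 1.06), and it was over 1.2 at 6 sites. Itga9 had a ratio of 1.48, Ildr2 1.42 and Nsd2 1.41, and the others were Lingo2, Nsd3 and Flad1, with ratios from 1.21 to 1.26. The ratios take no account of peak width, which was 150 to 151 nt on the Nsd2 transcripts. A transcript that missed the threshold is not listed, so these ratios cover the listed transcripts only.

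The peaks in the 3' UTR alone were narrow. Their median width, summed over exon blocks, was 210 nt (interquartile range 150 to 330, 95% interval of the median 181 to 240, n = 306), beside 300 nt (210 to 447, interval 271 to 330, n = 360) in the other regions. Higher 3' UTR sites had a median of 210.5 nt and lower ones 180 nt. Peaks spanning coding sequence and 3' UTR had a median of 360 nt (interval 301 to 419, n = 110). The intervals of the other regions and of the mixed class do not overlap with that of the 3' UTR alone. A wide peak near the stop codon reaches coding sequence and is counted in the mixed class. The rule that defines the classes therefore bears on these widths, and the difference was not tested. Of the 3' UTR sites, 44.4% were narrower than 200 nt and 7.19% wider than 500 nt.

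Widths fell on steps. Of the 306 sites 92.2% had a width within 2 nt of a multiple of 30 nt, and 82.2% of the other regions' sites did. The widths of 150 and 180 nt, within the same 2 nt, held 42 sites each. The widest sites were those of Sned1 (1200 nt), Rufy3 (1139 nt) and 6720489N17Rik (1050 nt), with folds of 1.54, 1.58 and 1.79. The narrowest were those of Timm10b, a subunit of a mitochondrial import chaperone (59 nt), and Cdr2l (60 nt), with folds of 1.99 and 1.54. At 61 nt they were followed by Rras2 and Rasa3, among others. Width and fold had a rank correlation of -0.17 over the higher sites (Spearman, n = 286), a weak relation over sites that share libraries and a fold threshold.

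**Figure D3:**
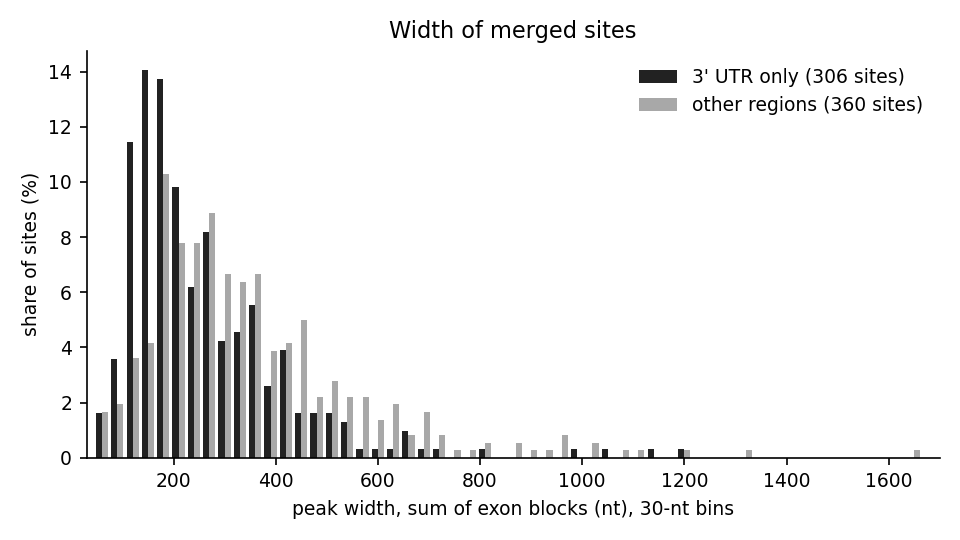
Share of sites (y axis, %) by peak width in 30-nt bins (x axis, nt) for the 306 sites in the 3' UTR alone (black) and the 360 sites of other regions (grey). The black bars are tallest from 120 to 180 nt, and the grey bars reach farther to the right.

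Almost every peak lay in 1 exon. Of the 475 listed peaks 473 had 1 exon block and 2 had 2 blocks, so the width and the genomic span had the same median of 210 nt.

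The transcripts were long, with a median of 3731 nt (95% interval of the median 3489 to 4219, n = 306), beside 3420 nt (3093 to 3740, n = 360) in the other regions. These intervals overlap. Higher sites had a median of 3840 nt (interquartile range 2566 to 5729) and lower sites 3289 nt. The longest were those of Tnrc6b, a partner of Argonaute in microRNA silencing (17332 nt), Ubr4, a ubiquitin ligase (15798 nt), and Zfp704 (13834 nt). The shortest were those of Mrpl42, a mitochondrial ribosomal protein (455 nt), Bola2, an iron-sulfur chaperone (642 nt), and Rgs12, a regulator of G protein signalling (671 nt). The folds at these 6 sites lay between 1.61 and 1.81, and over all higher sites length and fold had a rank correlation of -0.02 (n = 286).

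Many higher peaks sat at the very end of the gene. The distance was taken on the genome from the 3' edge of the peak to the 3' end of the RefSeq gene (GRCm38.p6), which 305 of the 306 sites matched, 6 of them through an older symbol. For higher sites the median was 360 nt (95% interval 90 to 570, n = 285), and 88 sites (30.9%, 25.6% to 36.6%) ended within 30 nt of the gene's end. Of the lower sites 4 of 20 did so (20%, 5.73% to 43.7%). The intervals of the higher and lower sites overlap. Higher sites that spanned coding sequence and 3' UTR ended within 30 nt in 12 of 94 cases (12.8%, 6.77% to 21.2%). To end there, a peak that includes coding sequence has to span nearly the whole 3' UTR. The region that defines the classes therefore limits this comparison.

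At the other extreme, 104 higher sites (36.5%) and 8 lower sites (40%) ended more than 1000 nt before the gene's end. A few lay far inside the RefSeq gene. The Nsd2 site ended 26271 nt and the Cux1 site 26320 nt before its end, and the distances at D3Ertd751e, Dclk1, Palm2 and Samd5 ran from 45351 to 363555 nt. These last 4 genes were named after their values were seen. Palm2 was matched through an older symbol to the RefSeq gene Pakap, so its distance runs to the end of Pakap. Conversely, 31 higher and 2 lower sites ran past the RefSeq end.

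**Figure D4:**
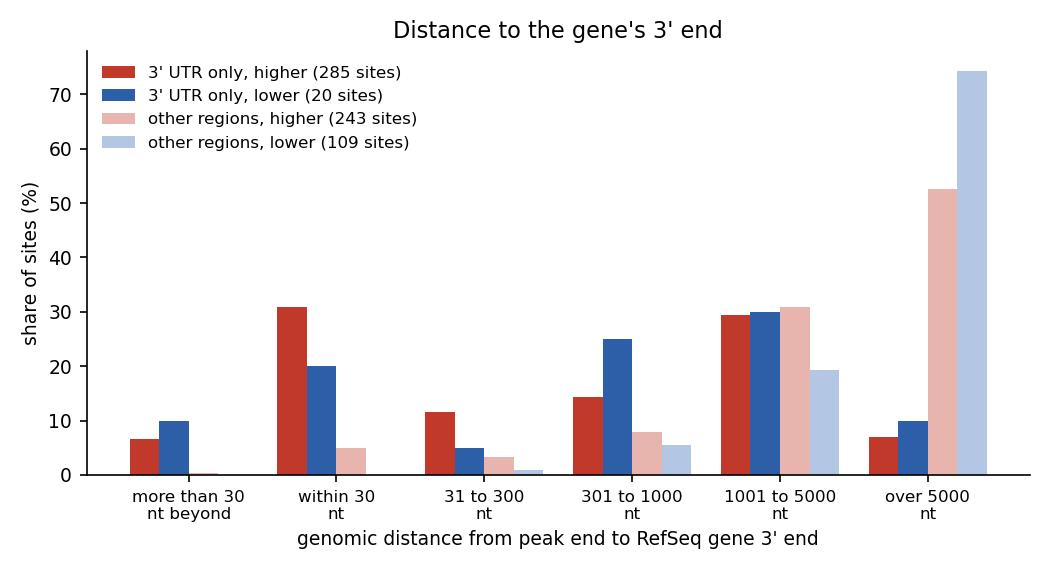
Share of sites (y axis, %) by the genomic distance from the 3' edge of the peak to the RefSeq 3' end of the gene (x axis, bins in nt), for higher and lower sites of the 3' UTR alone and of the other regions. The bin within 30 nt holds 30.9% of the higher 3' UTR sites and 4.94% of the higher sites of other regions, and distances include introns. The region that defines a class also limits how near its peaks can come to the gene's end.

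The 3' UTR of 5 genes held more than 1 site. Pik3cd, a catalytic subunit of phosphoinositide 3-kinase, had 2 higher sites separated by 514 nt, with folds of 2.39 and 2.48. Peg10, an imprinted gene derived from a retrotransposon, had 2 higher sites 88 nt apart, with folds of 1.52 and 1.79. Tbl1xr1, a subunit of the NCoR corepressor complex, had 2 higher sites 418 nt apart, with folds of 1.74 and 1.55. In these genes both sites were higher.

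In Dusp3 and Zfp235 the same 3' UTR held a higher and a lower site. In Dusp3, on the minus strand, the lower site at chr11:101974548-101974727 had a fold of 0.568 (deposited p 0.000794), and the higher site lay 3254 nt farther towards the 3' end, with a fold of 1.71 (deposited p 0.0151). Both sites were listed on 4 transcripts of the gene, with folds of 1.67 to 1.71 at the higher and 0.565 to 0.604 at the lower. In Zfp235, on the plus strand, the order was the reverse. Its higher site at chr7:24142286-24142555 had a fold of 2.97 (deposited p 0.00933), and its lower site 446 nt farther towards the 3' end had a fold of 0.247 (deposited p 0.0170), on the same transcript of 3373 nt. In neither gene did the 2 sites share bases.

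Peaks of another region were listed for 16 of the 301 genes. In 12 of these genes all peaks had 1 direction. In 9 of the 12 the other peak shared bases with the 3' UTR site and was placed in another region on another transcript, so its direction is no separate measurement, and only Brwd1, Rapgef2 and Tti1 had separate peaks. In 4 genes a higher 3' UTR site stood beside a lower peak elsewhere. In Stk40, a pseudokinase, the 3' UTR site had a fold of 1.97 (deposited p 0.000355), and the lower peaks at the 5' UTR and the start of the coding sequence had folds of 0.598 to 0.628. In Zfp618 the 3' UTR site had 1.57 on a transcript of 8826 nt. A peak spanning coding sequence and 3' UTR on that transcript was also higher (1.66). The lower peak, in the 5' UTR, had 0.301 and was listed on another transcript, of 1582 nt. In Plpbp, a pyridoxal phosphate-binding protein, the 3' UTR site had 2.51 and a peak across the stop codon 0.640 and 0.666 on 2 transcripts. In Pacs2, a sorting protein, the 3' UTR site had 1.53 and a coding peak 0.667, listed on different transcripts.

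Some sites could not be given to 1 gene. Of the 306 sites, 45 (14.7%) lay over the span of another RefSeq gene as well. They included sites with large folds above, namely Recql (over Pyroxd1), Adat3 (over Scamp4) and Nipa1 (over A230056P14Rik). In 4 pairs, sites of genes on opposite strands covered the same bases, and both members were higher with close folds. Usp16, a deubiquitinase, had a fold of 1.76 and Cct8, a chaperonin subunit, 1.69 over 181 shared nt. Slc25a26, the mitochondrial S-adenosylmethionine carrier, had 2.13 and Lrig1, a negative regulator of growth factor receptors, 2.01 over 139 shared nt. Rad9b, a checkpoint clamp protein, had 1.73 and Pptc7, a mitochondrial phosphatase, 1.74 over 151 shared nt. Slc6a20b, an amino acid transporter, had 1.61 and Sacm1l, a phosphoinositide phosphatase, 1.55 over 121 shared nt. The library kit marks the strand, but the sources used here do not say whether the counting used it, so the gene of each pair that carried the peak is uncertain.

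The genes were next grouped in 18 lists by role, counted over the RefSeq protein-coding genes, of which 1.29% had a higher and 0.0913% a lower 3' UTR site. Which of these genes were expressed enough to have a peak was not used here, so the shares of the lists describe the listed peaks and show no enrichment. Of the 306 sites, 90 fell in a list and 216 in none. The lists were made from gene symbols and do not hold every gene of a role, so their counts are not complete. No site fell in the list of 24 m6A writers, erasers and readers or in that of 20 polyadenylation and cleavage factors.

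**Figure D5:**
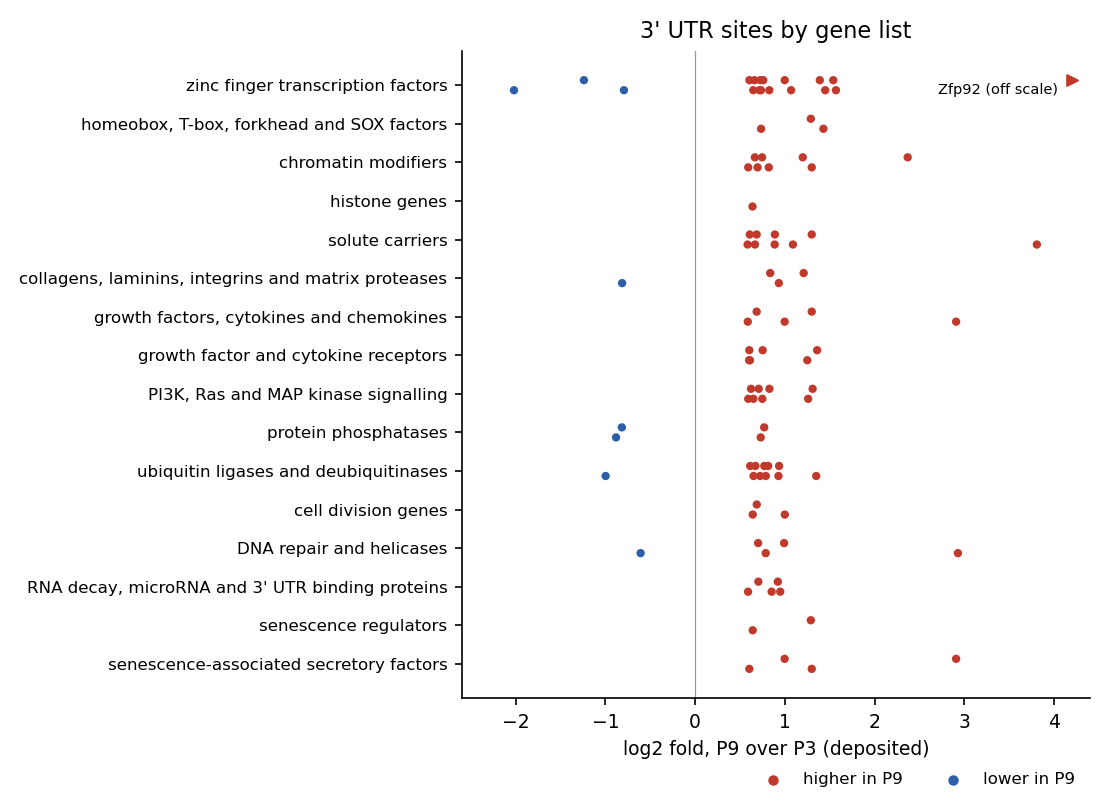
Log2 of the deposited fold of P9 over P3 (x axis) for the 3' UTR sites in each of the 16 gene lists that held any (rows), higher in red and lower in blue. Zfp92 is drawn at the right edge because its log2 fold of 11.4 is off the scale; lower sites appear in 5 of the lists.

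Transcription factors of the zinc finger class made up the longest list. Of 495 genes, 15 had a higher site (3.03%) and 3 a lower site, with Zfp235 in both counts, and the median fold of the higher sites was 1.77. Beside Zfp92, the smallest p were those of Zfp429 (fold 2.00, deposited p 0.00240), Zfp276 (1.77, deposited p 0.00380) and Zfp652 (1.69, deposited p 0.00562). Zfp697 (0.423) and Zbtb4 (0.577), which binds methylated DNA, were lower. Zinc finger genes have close copies, and the sources used here do not say how reads shared between copies were counted. Of 170 homeobox, T-box, forkhead and SOX factors, 3 had a higher site (1.76%), namely Tbx4 (2.69), Tbx3 (2.45), a repressor of the Cdkn2a locus, and Sox11 (1.66). Cux1, above, was not a member of that list.

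Chromatin modifiers had 8 higher sites and no lower site in 188 genes (4.26%). Cbx3, which encodes the heterochromatin protein HP1 gamma, had a fold of 1.51 (deposited p 0.000407), Nsd2, a methyltransferase of histone H3, 5.17 (deposited p 0.000977), Kdm5b, a histone H3 demethylase, 1.62 (deposited p 0.00437), and Kdm4a, another demethylase, 1.77 (deposited p 0.00832). The list held writers and erasers of histone methylation on the same side, where 93.5% of all 3' UTR sites were higher. The others were Hdac8, Suv39h2, Nsd3 and Arid4a, with folds of 1.59 to 2.46. Of 101 histone genes only H3f3a had a site.

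In the 3 signalling lists counted here no gene had a lower 3' UTR site, where 93.5% of all sites were higher. The PI3K, Ras and MAP kinase list had 7 higher genes of 131 (5.34%) and no lower gene. These included Pik3cd, Nras (1.68, deposited p 0.00646), Araf (1.54, deposited p 0.0107) and Rras2 (1.63, deposited p 0.0132), a kinase subunit, a Ras protein, a Raf kinase and a Ras-related protein. Of 160 growth factor and cytokine receptors 6 were higher (3.75%), led by Tnfrsf23, then Acvr1b, an activin receptor (1.53, deposited p 0.0145), and Plxna2, a semaphorin receptor (2.38, deposited p 0.0331). Fgfr1op2 (1.52) entered this list by its symbol and is not itself a receptor. Of 216 growth factors, cytokines and chemokines 5 were higher (2.31%), namely Vegfa, the vascular growth factor (2.00, deposited p 0.00158), Efna5, Efna1 (1.61), Bmp2 and the chemokine Cxcl12 (2.46).

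Of 171 protein phosphatases, Ppm1a (1.66, deposited p 0.00155) and Dusp3 had a higher site, and Dusp3 and Ppp1r12b a lower one. Higher and lower genes were thus equal in number among its members, with Dusp3 in both counts. Pptc7, the mitochondrial phosphatase above with a higher site (1.74), was not a member of this list.

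Ubiquitin ligases and deubiquitinases had 10 higher genes and 1 lower gene, Spopl, of 478 (2.09% higher). Smurf1, a ligase that targets SMAD proteins, had 1.71 (deposited p 0.000110), Usp30, a mitochondrial deubiquitinase, 1.57 (deposited p 0.000513), Usp16 1.76 (deposited p 0.000832) and Ubr4 1.65 (deposited p 0.00372). Both attachment and removal of ubiquitin were represented. Of 389 solute carriers 9 were higher (2.31%) and none lower, beside 93.5% higher over all 3' UTR sites. Beside Slc7a11, the smallest p were those of Slc25a26 (deposited p 0.00363) and Slc6a20b (deposited p 0.00372), both in overlapping pairs above, and of Slc27a4, a fatty acid transporter (1.85, deposited p 0.00646), and Slc36a4, an amino acid transporter (1.59, deposited p 0.00692).

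In the list of collagens, laminins, integrins and matrix proteases, 3 of 191 genes were higher (1.57%), a share near that of all genes. They were Itga9, Col4a5 (1.79, deposited p 0.000537), a basement membrane collagen, and Col8a2 (1.91, deposited p 0.00155). Col5a3, a fibrillar collagen, was lower (0.569, deposited p 0.0302). The fibrillar collagens that mark fibroblasts were not among them.

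The genes of RNA decay, microRNA action and 3' UTR binding had 5 higher members of 127 (3.94%) and no lower one. Over all 3' UTR sites 93.5% were higher. G3bp1 and Hnrnpk (1.63, deposited p 9.77e-05), an RNA-binding protein of the hnRNP family, led by p. Tnrc6c (1.93, deposited p 0.000513) and Tnrc6b (1.81, deposited p 0.0437) encode scaffold proteins of the microRNA silencing complex. The median fold of the 5 was 1.81, beside 1.73 over all higher sites.

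Of 132 DNA repair genes and helicases 4 were higher (3.03%), namely Recql, Rad9b, and the DNA ligases Lig1 (1.99) and Lig4 (1.63), and Parp6 was lower (0.656). Of 199 cell division genes 3 were higher (1.51%), a share near the 1.29% of all RefSeq protein-coding genes. They included Kif4, a mitotic kinesin (2.00, deposited p 0.00427), and Lmnb1, which encodes lamin B1 (1.56, deposited p 0.00631). The third, Kif1b (1.61), is a kinesin of axonal transport and not a mitotic gene. Birc5, the mitotic gene above with a higher site, was not a member of that list.

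The lists closest to senescence were small, so the sites in them were few. Over all RefSeq protein-coding genes 1.29% had a higher site, and no enrichment was tested. Of 71 senescence regulators, Lmnb1 and Tbx3 had a higher site (2.82%), and no member was lower, where 93.5% of all sites were higher. In the senescence-associated secretory list 4 of 74 genes were higher (5.41%), namely Vegfa, Bmp2, Cxcl12 and Egfr, the epidermal growth factor receptor (1.52, deposited p 0.0417), and the first 3 of these are also in the growth factor list. The folds of these 4 ran from 1.52 to 7.52. Small lists move by a whole percentage point or more with a single gene.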

How the data were processed

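MeRIP-seq was performed on P9 and P3 MEFs. The RNA was fragmented, m6A-containing fragments were pulled down with an antibody, and libraries were made with a stranded mRNA kit. The fold (ratio) values are, as deposited by the authors, linear ratios of Treatment over Control, 1 for every pair of a peak and a transcript. The p-values are, as deposited by the authors, those of that comparison, and the sources used here name neither its test and adjustment nor the aligner, the peak caller or the use of the input. The labels name the build mm10. Both values are the authors' own comparison, and no value per library was used.

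The values of a site with several transcripts are those of the transcript with the smallest p. Shares have 95% Clopper-Pearson intervals and medians exact binomial intervals, which count listed peaks only. Merging and intervals were tested on simulated data. No test between groups was made, because there were no replicate values. Positions count from 1. Gene ends and sequences came from RefSeq (GRCm38.p6). Motifs within other 3' UTR sites were not analysed here, since no genome was used.

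The members and the gene lists were chosen with earlier results of these data known. Genes named were the 10 with the largest change in each direction, the 10 higher and 5 lower sites with the smallest p, up to 4 members of a list with the smallest p, genes with several sites or opposing peaks, sites at the extremes of width, transcript length and fold threshold, and Itga9. Others were chosen after their values were seen, among them those in the paragraphs on overlapping genes and on distance and the remaining members of the lists. A gene list and a gene are not reported here. Alternatives changed the thresholds, the unit counted, the region and the transcript chosen. The analysis used Python 3.11.15 with scipy 1.17.1, pandas 2.3.3 and numpy 2.4.6, and matplotlib 3.10.9 for the plots.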

Additional observations from a re-analysis of the deposited data

How the results depend on the processing

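Of 45 values recomputed under the alternatives, 34 stayed within the interval of the value given, or within 1.5 times a count, and 11 moved. With listed peaks of p at most 0.001 the share of higher peaks was 96.2%, the median fold of the higher sites 1.68 and the median width 269.5 nt, and 36 genes were left. With p at most 0.01 the median width was 268 nt, and 103 genes were left. With changes of at least 2-fold the share of higher peaks was 89.8%, the median folds were 2.57 (higher) and 0.324 (lower), and 87 genes were left, where the smaller counts and larger folds follow from the limit itself. With every peak that touches the 3' UTR the median width was 241 nt. In all settings tried, between 89.8% and 96.2% of the peaks were higher. Exchanging rows and merged sites, 1 peak per gene and direction and another transcript at each site moved none of the values they were run for beyond its interval. Merging at a larger overlap was run for the share of higher peaks alone, the genomic span for the width alone and leaving out Zfp92 for the median fold of the higher sites alone, and each left that value within its interval. The medians of the lower sites rest on 20 sites, and the depth behind each fold is unknown. No paired analysis was possible because the deposited values hold 1 value per peak and no library values. The bases around the consensus motif were not read for other sites, since no genome was used.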
